A study of Mus musculus with 2 samples.

Results

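Interferon-induced genes are the genes a cell switches on when interferons reach its receptors. A list of 38 such genes was followed by name through single-cell RNA counts from mice at postnatal day 14. The tissue was the dural meninges, the tough sheet that lines the skull. Of the 38, 37 were found among the 27998 genes of the count matrices, and Mx2 was not analysed here. All 37 had at least 1 unique molecular identifier (UMI, a tag that marks 1 captured RNA molecule) in each library.

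The study compared mice of genotype Il33H2B-mcherry-het (Il33mcherry/+, called het here) with mice of genotype Il33H2B-mcherry-KO (Il33mcherry/mcherry, called KO), with 1 library of each. Both groups carry the reporter allele, and no wild-type group is among the samples. IL-33 is an alarmin that stromal and barrier cells release. Tissue of 5 to 8 mice went into each pool, with pools made per genotype and sex, and viable total cells were enriched by sorting with lymphocytes (CD45+CD11b-) and stroma (gp38+CD31-). The shares of cell types are thus set in part by the sort. Annotated cells numbered 5950 (of 10936 barcodes) in het and 6594 (of 12046) in KO, with median depths of 12746.5 and 12204.5 UMIs per cell. Il33 itself stood at 97.0 CPM (counts per 1000000 UMIs) in the het and 20.4 CPM in the KO library over clusters 0, 4, 5 and 7. Of the annotated barcodes, 14 occur in both libraries.

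Each genotype is a single library without replicates, which leaves nothing to test, and p-values are therefore absent. A difference between the libraries cannot be told apart from one between pools of animals, sorts or preparations. Intervals cover counting error only. Levels are CPM: a gene's UMIs in all cells of a class, scaled to the sum of all UMIs of those cells in that library. Classes are the authors' clusters, and for cluster 9 the authors' 4 cell names (ILC2s, NK, Tcells, gdTcells). Of the 25 classes, 22 had at least 50 cells in each library. Clusters are called X-like from marker genes. Cluster 3 is macrophage-like (7 of 7 markers at least 2-fold above other cells), 8 endothelial-like (7 of 7), and 7 and 0 fibroblast-like (7 of 7 and 4 of 7). Cluster 18 is monocyte-like (6 of 7). It has 4 of 4 granulocyte progenitor markers as well, which stood lower at 1327 against 5247 CPM in het. Cluster 14 is dendritic cell-like (6 of 7), 13 neutrophil-like (7 of 7, with 7 of 7 macrophage markers as well), 5 arachnoid barrier-like (4 of 5) and 4 osteolineage-like (6 of 6). Cluster 12 is mast cell or basophil-like (7 of 7, with 4 of 4 granulocyte progenitor markers as well, which stood higher at 5305 against 3783 CPM in het), 20 pericyte or smooth muscle-like, and clusters 1, 2, 6, 10 and 16 are B cell-like. Cluster 11, led by Cd209a, Cd209d and Ccl17, holds markers of macrophages, monocytes and dendritic cells and stays unnamed. Clusters 17 and 19 are led by genes of neurons and olfactory neurons, which the label of dural tissue does not name. Cluster 21, with Pde6g, Gnb3, Chgb, Tph1 and Sag among its leading genes, stays unnamed.

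Type I interferons bind a receptor made of Ifnar1 and Ifnar2, and the kinases Jak1 and Tyk2 then pass the signal on. A complex that holds Stat2 and Irf9 binds the interferon-stimulated response element (ISRE) in promoters. Interferon gamma, made mainly by NK and T cells, acts through its own receptor and the gamma-activated site (GAS). The products block viral RNA translation (Ifit1, Ifit2, Ifit3), degrade or sense viral RNA (the Oas enzymes, Ifih1, Ddx58), tag proteins (Isg15) or remove that tag and damp the receptor (Usp18). Many border tissues hold a low level of these RNAs without infection.

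The list was read in 4 groups. The core held 20 genes mainly known as targets of type I interferon, 19 of them measured. The sensors and factors were Irf9, Stat2, Ifih1 and Ddx58. The GTPases known for their response to interferon gamma were Igtp, Irgm1, Ifi47, Gbp2, Gbp3 and Gbp7. The other 8, Ifi27l2a, Bst2, Ifi35, Trim30a, Parp14, Ifitm3, Slfn2 and Slfn5, are also expressed widely at rest. Ifit3 and Ifit3b are near-identical copies, as are several Oas, Gbp and Slfn relatives, so the split of their counts is uncertain.

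Promoter sequences show what the members share in DNA. The RefSeq table (GRCm38.p6) holds promoter windows of 300 bases for 30 of the 38 genes, and Oas2, Usp18, Mx1, Mx2, Zbp1, Rtp4, Ifi27l2a and Parp14 have no entry in it. An exact ISRE core, GAAA then any 2 bases then GAAA, on either strand and with overlapping matches counted, lies in the windows of 19 of these 30 genes (63.3%), against 3.99% of 27025 genes. It was found in 7 of 14 core genes, 3 of 4 sensors and factors, 5 of 6 GTPases and 4 of 6 of the widely expressed genes. The GAS letters TTCNNNGAA, which read the same on both strands, lie in 7 of the 30 (23.3%), against 9.55% of 27025 genes. A match is a description of the letters, and no match says only that they are not in this window. The 160 bases before the start site are printed below for 4 core genes whose values recur in the results, 1 GTPase and 1 widely expressed gene. Capitals mark ISRE matches, which read TTTC then 2 bases then TTTC where the element lies on the opposite strand.
Isg15: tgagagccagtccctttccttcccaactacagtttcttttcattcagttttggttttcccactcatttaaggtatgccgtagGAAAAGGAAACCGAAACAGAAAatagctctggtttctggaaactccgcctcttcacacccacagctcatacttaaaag
Ifit1: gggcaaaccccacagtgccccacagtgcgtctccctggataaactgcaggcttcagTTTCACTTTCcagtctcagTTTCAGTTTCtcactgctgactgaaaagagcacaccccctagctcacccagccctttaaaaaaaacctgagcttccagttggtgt
Ifit3: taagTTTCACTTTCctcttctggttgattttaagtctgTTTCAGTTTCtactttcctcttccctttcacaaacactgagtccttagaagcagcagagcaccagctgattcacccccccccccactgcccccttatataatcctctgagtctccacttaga
Rsad2: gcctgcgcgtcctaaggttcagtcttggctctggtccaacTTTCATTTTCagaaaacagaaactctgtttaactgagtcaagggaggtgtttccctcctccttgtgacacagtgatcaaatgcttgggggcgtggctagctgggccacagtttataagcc
Gbp2: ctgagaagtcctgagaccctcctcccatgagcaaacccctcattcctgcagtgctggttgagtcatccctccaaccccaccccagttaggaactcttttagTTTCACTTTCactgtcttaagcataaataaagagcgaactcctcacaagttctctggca
Bst2: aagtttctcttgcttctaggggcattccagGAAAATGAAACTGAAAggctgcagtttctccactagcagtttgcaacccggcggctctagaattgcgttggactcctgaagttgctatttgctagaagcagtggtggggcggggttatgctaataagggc
Isg15 (chr4:156200819-156200978, minus strand) has 3 overlapping matches that begin 78 to 66 bases before the start. Ifit1 (chr19:34640729-34640888, plus strand) has 2, at 104 and 85 bases, and Ifit3 (chr19:34583369-34583528, plus strand) has 2, at 156 and 122 bases. Rsad2 (chr12:26456453-26456612, minus strand) has 1 at 120 bases, and Gbp2 (chr3:142620503-142620662, plus strand) has 1 at 59 bases. Bst2 (chr8:71537473-71537632, minus strand) has 2 overlapping matches at 130 and 124 bases.

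The first question was where in the tissue these genes are expressed. The summed core genes spanned from 17.2 CPM (het) and 17.3 CPM (KO) in cluster 17, led by the neuronal genes Igfbpl1 and Neurod1, to 587.9 CPM (cluster 11, het) and 706.5 CPM (cluster 18, KO). The mean of the libraries was highest in clusters 18, 11, 3, 8, 7 and 14, in that order. Single genes had their own first place. By mean CPM, 8 of the 37 members were highest in monocyte-like cluster 18 and 8 in endothelial-like cluster 8, and 4 each in clusters 3, 11 and 14. The lowest class was cluster 17 for 19 of the 37.

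**Figure D1:**
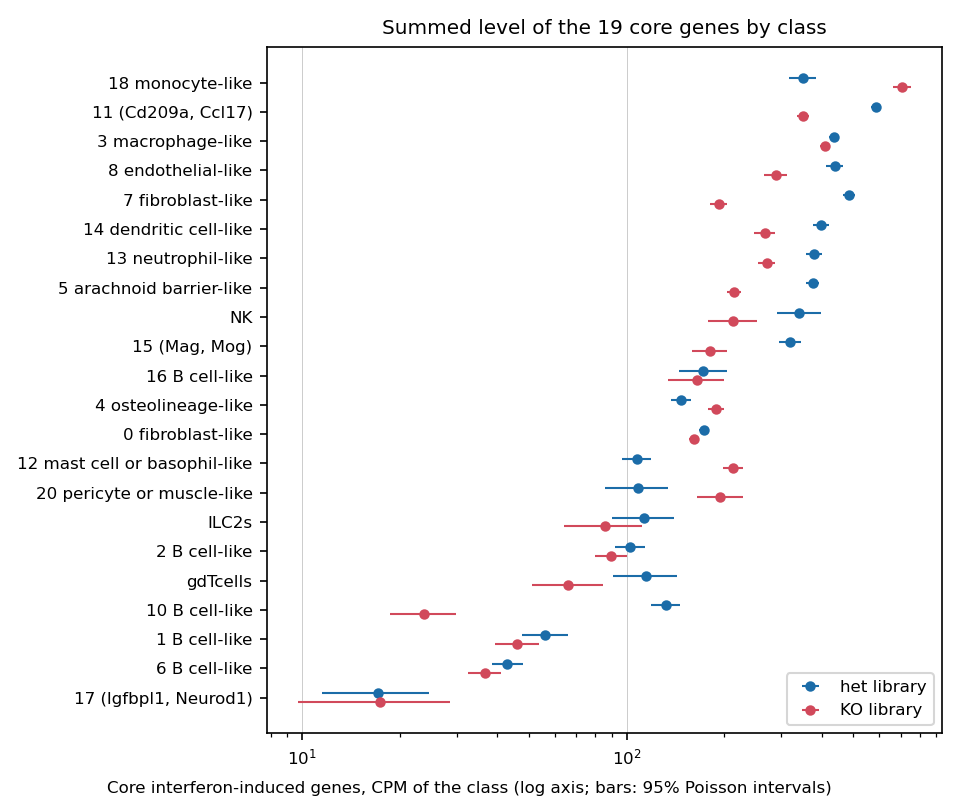
Summed level of the 19 core genes (x axis, CPM, log scale) in the 22 classes with at least 50 cells per library (y axis, ordered by the mean of the libraries), with 95% Poisson intervals as bars. Cluster 17 lies near 17 CPM in both libraries, and the libraries lie farthest apart in cluster 10.

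Among the core, Isg15, the ubiquitin-like protein tag, reached 155 CPM in het and 56.2 CPM in KO cells of fibroblast-like cluster 7. In monocyte-like cluster 18 it stood at 58.6 CPM in het and 153.6 CPM in KO cells. The order of these classes is thus not the same in the libraries. In cluster 17 a single UMI of Isg15 was seen in each library, in 0.813% of het and 1.59% of KO cells, at median depths of 11260 and 10715 UMIs. Beside this background, 52.7% of het cells and 34.8% of KO cells of cluster 7 had an Isg15 UMI, at median depths of 17513.5 and 17126 UMIs. After each cell was thinned to 2000 UMIs these shares were 17.05% and 7.59%, and 0% in cluster 17.

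Irf7, the factor that amplifies interferon production, was highest in cluster 18, at 78.4 CPM (het) and 121.3 CPM (KO). Rsad2, which encodes the antiviral protein viperin, was highest in endothelial-like cluster 8, at 72.1 and 35.6 CPM. Ifi44 was also highest there, at 25.8 and 15.9 CPM, and the next class, cluster 16, averaged 2.80 CPM. Mx1, an antiviral GTPase, and Oasl1 were highest in dendritic cell-like cluster 14, Mx1 at 24.4 and 29.8 CPM. Oas3 was highest in neutrophil-like cluster 13, at 23.9 and 18.3 CPM. Rtp4 was highest in macrophage-like cluster 3, at 59.7 and 59.0 CPM.

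The GTPases had another distribution. Igtp was highest in gdTcells, at 53.7 CPM in het and 53.8 CPM in KO cells, and Ifi47 in NK cells, at 92.0 and 112.0 CPM. Irgm1, a regulator of autophagy, was highest in endothelial-like cluster 8, at 115.7 and 77.8 CPM. Gbp7 was highest in macrophage-like cluster 3, at 117.3 and 110.8 CPM, with cluster 8 next, and the libraries lay close together there. Ifng, the gamma interferon, was itself seen in 37 het cells (82 UMIs) and 35 KO cells (73 UMIs), of which NK cells held 48 and 36 UMIs.

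Among the widely expressed members, Ifitm3, a membrane protein that blocks viral entry, stood at 2488 CPM in het and 2953 CPM in KO cells of cluster 18, with a UMI in 100% of its cells. Ifi27l2a was at 691 and 988.4 CPM in the same cluster, and at only 20.1 and 11.7 CPM in cluster 8. Bst2 (tetherin) was highest in cluster 11 by the mean of the libraries, at 392.1 and 504.4 CPM. Cluster 3 came next with a mean of 398.7 CPM, and was highest in the het library alone. Slfn5 was highest in cluster 8, at 243.4 and 258.3 CPM, and Trim30a in B cell-like cluster 16, at 104.0 and 103.4 CPM. Among sensors, Ddx58 (RIG-I) was highest in B cell-like cluster 2, at 43.9 and 47.7 CPM, and Ifih1 (MDA5) in cluster 3, at 23.1 and 28.1 CPM.

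The next question was how many cells carry these RNAs together. Most cells had few: 68.7% of het and 71.7% of KO cells had a UMI of at most 1 core gene. A cell was counted as carrying the signal if it had at least 5 core genes with a UMI and at least 10 core UMIs per 10000. In the het library 168 of 5950 cells passed, 2.82% (95% Clopper-Pearson interval 2.42 to 3.28%). In the KO library 143 of 6594 passed, 2.17% (1.83 to 2.55%). The KO/het ratio of the shares was 0.77 (0.61 to 0.97). The rule is a cut in a continuous range: 41 het and 41 KO cells lay just inside it (5 core genes, or under 12 core UMIs per 10000), and 58 and 43 just outside (4 core genes, or 8 to 10 core UMIs per 10000).

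These few cells held much of the core RNA. In the het library they had 48.5% of all core UMIs with 3.36% of all UMIs, and in the KO library 39.8% with 2.74%. The rule picks cells by these same core UMIs, so a core share above the share of all UMIs is built in. They were somewhat deeper than other cells, with medians of 15196 against 12669 UMIs (het) and 15134 against 12115 (KO). After thinning to 2000 UMIs and asking for 3 core genes, 2.47% of het and 1.78% of KO cells passed. At least 15 core genes were seen in 33 het cells and 15 KO cells. A KO macrophage-like cell had all 19, with 457 core UMIs among 15028, including 102 of Rsad2, 77 of Ifit3, 49 of Isg15 and 47 of Irf7. A het dendritic-like cell of cluster 14 had 17, with 373 core UMIs among 15950, including 75 of Ifit3 and 64 of Isg15.

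The signal cells were spread over the tissue. They were seen in 18 of 25 classes in het and 20 of 25 in KO. Cluster 11 had 23 of 196 het cells (11.7%, 7.59 to 17.1%) and 13 of 240 KO cells (5.42%, 2.92 to 9.09%). Endothelial-like cluster 8 had 24 of 261 (9.20%) and 13 of 226 (5.75%), and macrophage-like cluster 3 had 26 of 446 (5.83%) and 32 of 440 (7.27%). Monocyte-like cluster 18 had 7 of 91 (7.69%) and 11 of 92 (11.96%). Fibroblast-like cluster 7 had 15 of 264 (5.68%) and 7 of 316 (2.22%), whereas the larger fibroblast-like cluster 0 had 15 of 984 (1.52%) and 22 of 1155 (1.90%). The KO/het ratio of the shares was 0.46 (0.21 to 0.95) in cluster 11, and in the other 5 of these clusters its interval included 1.

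B cell-like clusters together had 15 signal cells of 1929 in het (0.778%) and 7 of 2169 in KO (0.323%). Cluster 6, led by the B cell precursor genes Igll1 and Vpreb1, had 0 of 319 and 0 of 328 cells, which allows shares of up to 0.940% and 0.915%, at median depths of 19690 and 19368.5 UMIs. Cluster 17 had 0 of 123 and 0 of 63 cells, which allows up to 2.44% and 4.76%.

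**Figure D2:**
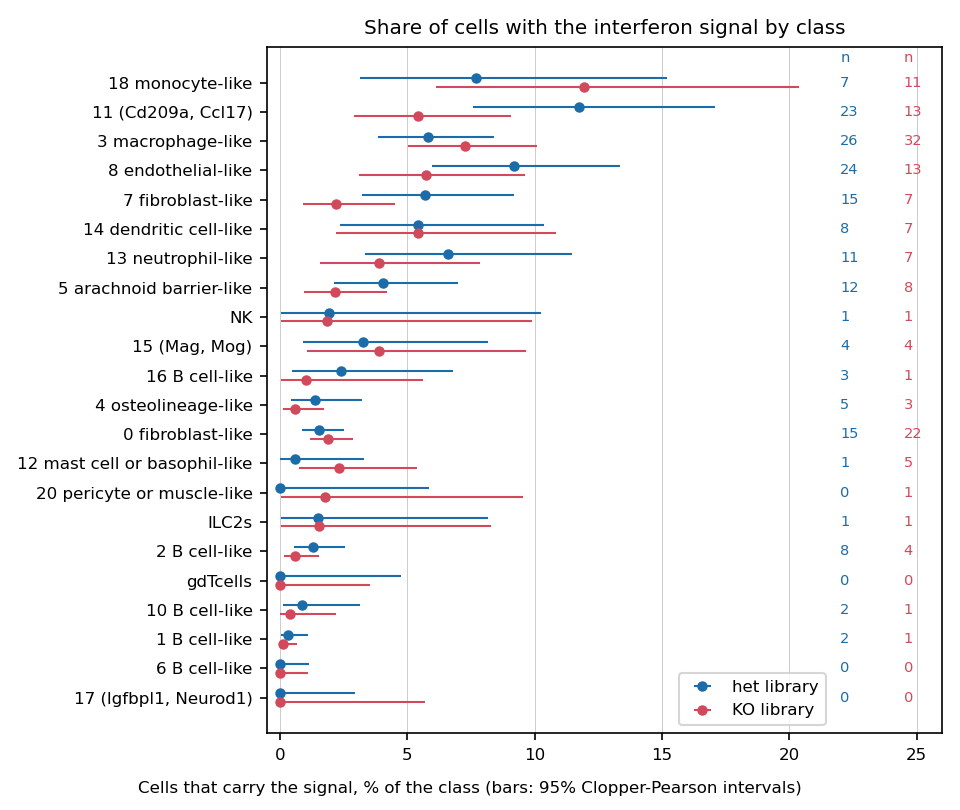
Share of cells that carry the signal (x axis, percent of the class) in the same 22 classes (y axis), with 95% Clopper-Pearson intervals as bars and the number of signal cells (n) at the right. Cluster 11 has the highest het share, 11.7%, and cluster 18 the highest KO share, 11.96%.

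The signal cells were chosen by core genes, so the other 18 members, which the rule did not use, were read in them. Each was set against the other cells of the same classes, weighted to the same mix. All 18 were at least 1.5-fold higher in the signal cells in both libraries, where 3.68% of 17538 genes were. Their ratios ranged from 1.92 to 7.70 (median 3.90) in het and from 1.95 to 7.17 (median 3.51) in KO. Ifi47 led with 174.5 against 22.7 CPM in het and 159.7 against 22.3 CPM in KO. Ifih1 followed the core as well, at 89.3 against 16.9 CPM and 79.8 against 16.6 CPM. Slfn2, which is high in lymphoid and myeloid cells at rest, had the lowest ratio in het, at 266.5 against 138.5 CPM, and Irf9 had the lowest in KO, at 66.3 against 34.0 CPM.

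**Figure D3:**
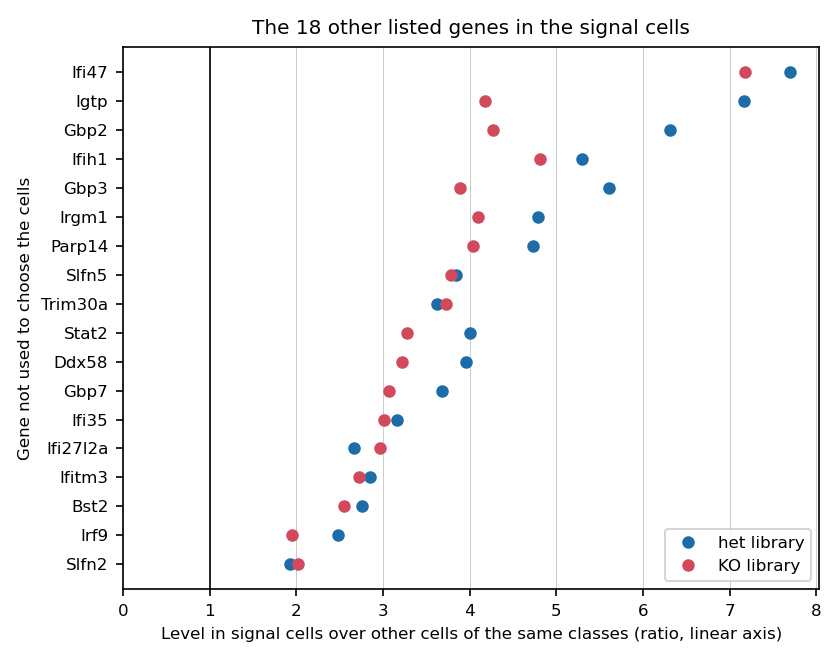
Level of the 18 members that the rule did not use (y axis) in signal cells over other cells of the same classes (x axis, ratio on a linear scale, black line at 1), 1 point per library. All points lie between 1.92 and 7.70.

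Each core gene was read in the same way, with cells chosen by the other 18 core genes. The ratios ran from 3.84 to 52.1 in het and from 3.74 to 53.1 in KO. Ifit1 had the highest, 478.8 against 9.2 CPM in het and 323.0 against 6.1 CPM in KO. Oas2 had the lowest, 18.1 against 4.7 CPM in het and 18.3 against 4.9 CPM in KO. Isg15 was 24.2-fold higher in het and 25.0-fold higher in KO.

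The rest of the pathway was read from fixed lists. Of 48 further induced genes, 44 were at least 1.5-fold higher in signal cells in both libraries, such as Cxcl10, a chemokine that attracts T cells, at 759.5 against 70.6 CPM (het) and 445.3 against 37.1 CPM (KO). Of 19 signalling genes 6 were, among them Dhx58, a relative of the RNA sensors, with ratios of 6.01 and 7.03, and Tlr3 with 2.07 and 2.26. Jak1 stood at 1.06 and 1.03, Tyk2 at 1.17 and 1.07. Of 6 receptor genes none was, with medians of 1.03 and 1.07, and Ifnar1 at 1.16 and 1.03.

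Transcripts of the ligands themselves were rare. Ifnb1 had 19 UMIs in 2 het cells and 0 UMIs in the KO library. Both cells lay in cluster 11, and 1 of them held 17 of the UMIs. That cell had 10 core genes and 41 core UMIs among 41486, just under the level that counts as carrying the signal. Ifnab and Ifnz had 4 UMIs each in het and 5 each in KO, in as many cells, and Ifna16 and Ifnk had 1 UMI each in het. The other 15 of the 21 ligand genes, a list that also holds Ifng, had 0 UMIs in both libraries.

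The second comparison was KO against het within each class. Over all annotated cells, 12 of the 19 core genes were lower in KO with an interval below 1, none had one above 1, and the median ratio was 0.79. Of 17610 genes, 22% had an interval below 1 and 11.6% above 1. Rsad2 was lowest, at 0.50 (0.45 to 0.55), then Ifit1 at 0.61 (0.57 to 0.66), and Isg15 stood at 0.68 (0.65 to 0.71). Of the 6 GTPases 5 had an interval below 1 (median ratio 0.87), and of the 4 sensors and factors 2 did (0.96). Of the 8 widely expressed members 4 did (0.96), with Parp14 lowest at 0.83 and Bst2 highest at 1.02. Members differed in direction by class, so each is given below beside the share of all genes past the same 1.5-fold.

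Fibroblast-like cluster 7 had the lowest KO/het ratio among the 6 classes with the highest core level. Core genes went from 484.0 CPM (464 to 504) in het to 192.6 CPM (181 to 205) in KO, a ratio of 0.40 (0.37 to 0.43). Of 32 measured members (at least 20 UMIs over both libraries), 15 were at least 1.5-fold lower and 0 higher, against 3.65% and 7.75% of 12004 genes. Ifit1 went from 63.3 to 9.46 CPM (295 and 52 UMIs), a ratio of 0.15 (0.11 to 0.20). Ifit3 went from 93.5 to 27.5 CPM, a ratio of 0.29. Rsad2 had 48 UMIs in 8 het cells and 1 UMI in 1 KO cell, a ratio of 0.02 (0.00 to 0.10). The direction was the same in cells labelled female (0.29) and male (0.55), labels that follow whether Xist was detected. Without the signal cells, which were picked by these same core UMIs, the ratio was 0.76 (0.69 to 0.83). Those 15 het and 7 KO cells held 58.6% and 18.8% of the core UMIs of the cluster.

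Cluster 11 was also lower in KO, going from 587.9 to 350.4 CPM, a ratio of 0.60 (0.56 to 0.63). Of 36 measured members 12 were at least 1.5-fold lower and 0 higher, against 9.59% and 3.73% of 11626 genes. Rsad2 went from 49.3 to 12.8 CPM (0.26), Oasl1 from 11.9 to 2.7 CPM (0.22) and Ifit1 from 50.5 to 18.3 CPM (0.36). Bst2 went the other way, from 392.1 to 504.4 CPM (1.29). Cells past the threshold for plasmacytoid dendritic cell markers, given under Other observations, numbered 13 in het and 33 in KO in this cluster. Bst2 stood at 3246 CPM (het) and 2842 CPM (KO) in them, and at 280.1 and 279.4 CPM in the other cells. Its higher KO level was thus not seen within either set of cells. Female and male cells gave 0.69 and 0.57 for the core. Without the signal cells the core ratio was 0.95 (0.87 to 1.04). The het cells of this cluster were deeper, with a median of 23817 against 19572.5 UMIs, and markers of plasmacytoid dendritic cells stood at 408 against 536 CPM. The part of either in the core ratio was not tested.

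Endothelial-like cluster 8 went from 437.9 to 288.3 CPM, a ratio of 0.66 (0.60 to 0.73), with 0.66 in female and 0.71 in male cells. Of 31 measured members 6 were lower past 1.5-fold and 0 higher, against 6.78% and 5.07% of 10520 genes. These were Ifit3 (27.0 to 10.3 CPM), Rsad2, Ifit1, Cmpk2, Ifi44 and Ifi27l2a. The lower Ifi27l2a value rested on single cells, since its ratio was 1.29 once the top cell of each library was left out. Of members highest in this cluster, Irgm1 stood at 0.67 (0.55 to 0.82), just short of the fold, and Slfn5 at 1.06 (0.94 to 1.19).

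Dendritic cell-like cluster 14 went from 398.0 to 266.6 CPM for the core (0.67, 0.61 to 0.74). Of 33 measured members 11 were at least 1.5-fold lower and 1 higher, against 10.8% and 6.57% of 9895 genes. Ifit3 went from 41.1 to 6.37 CPM and Ifit1 from 21.1 to 3.58 CPM. Zbp1, a sensor of left-handed nucleic acids, was the 1 higher, at 14.0 and 23.1 CPM (1.64, 1.09 to 2.51). The member median was close to 0, -0.02 on the log2 scale, beside -0.03 for all genes. A single het cell held 31.3% of the core UMIs of its library in this cluster, and without the signal cells the core ratio was 1.16 (0.98 to 1.39). Pericyte or smooth muscle markers stood at 251.9 and 18.3 CPM in this cluster (2 of 6 at 0 in KO) and fibroblast markers at 4101 and 2882 CPM, and their part in the result was not tested.

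Macrophage-like cluster 3, with the most signal cells in each library, had the core ratio nearest to 1 among the 6 classes. Core genes were at 435.3 and 408.7 CPM, a ratio of 0.94 (0.89 to 0.99). Of 36 measured members 1 was at least 1.5-fold higher (Cmpk2, 5.2 and 8.0 CPM) and 0 lower, against 3.25% and 6.91% of 12934 genes. Rsad2 stood at 28.6 and 30.3 CPM, and Rtp4 at 59.7 and 59.0 CPM. The sexes went opposite ways: the core ratio was 0.78 (0.73 to 0.83) in female and 1.29 (1.19 to 1.40) in male cells. A single KO cell labelled male held 457 core UMIs, 15.3% of the KO total of the cluster.

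Monocyte-like cluster 18 was the 1 class of the 6 that was higher in KO, from 349.1 to 706.5 CPM, a ratio of 2.02 (1.80 to 2.27). Of 34 measured members 19 were at least 1.5-fold higher and 0 lower, against 5.43% and 12.7% of 8015 genes. Ifit3 went from 8.7 to 41.7 CPM (4.79, 2.47 to 10.2), Ifi47 from 21.4 to 70.9 CPM and Igtp from 3 UMIs to 23 (7.63, 2.30 to 39.7). Rsad2 had 1 het UMI and 22 KO UMIs in 5 cells, a ratio of 21.9 (3.54 to 903). Female and male cells gave 1.98 and 3.02 for the core. One KO cell held 345 core UMIs, 38.5% of the KO total, and leaving out the top cell on either side gave a ratio of 1.51 (1.32 to 1.73). Without the signal cells it was 1.19 (0.98 to 1.45). Markers of other cells moved here too: the 7 neutrophil markers stood at 3364 CPM in het and 15103 CPM in KO, and the 7 B cell markers at 465 and 71.7 CPM, with 1 of these at 0 in KO. Their part in the result was not tested.

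**Figure D4:**
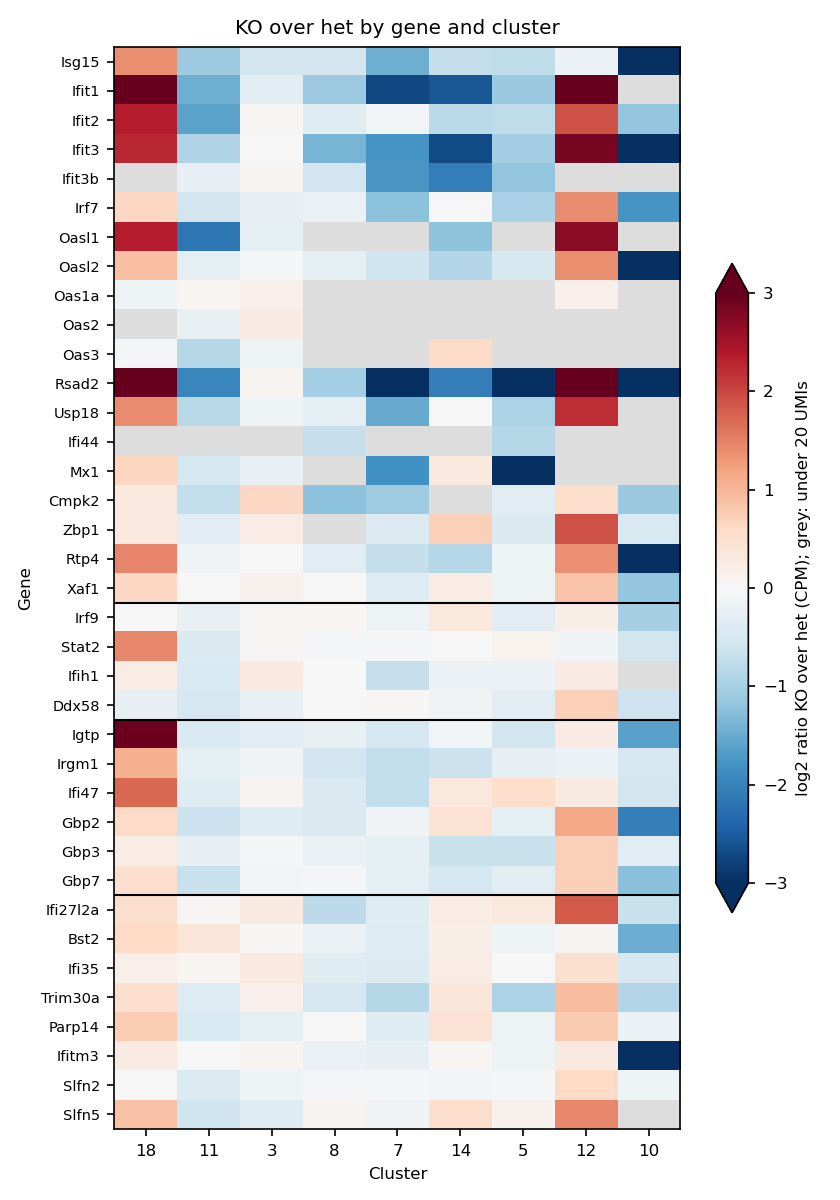
log2 of KO over het CPM (colour) for the 37 members (y axis, black lines part the core, the sensors and factors, the GTPases and the widely expressed genes) in 9 clusters (x axis), with grey for fewer than 20 UMIs. The core block is mostly blue in clusters 11, 7, 14 and 5 and red in 18 and 12, and most cells of the lower blocks are paler.

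Outside these 6, cluster 5, arachnoid barrier-like, also had a lower core in KO, 374.3 and 215.1 CPM (0.57, 0.54 to 0.61). Of 33 measured members 12 were at least 1.5-fold lower and 0 higher, against 5.74% and 3.23% of 12726 genes. The ratio was 0.45 in female and 0.96 in male cells, and 1.14 without the signal cells. In B cell-like cluster 10 the core went from 132.0 to 23.8 CPM (0.18, 0.14 to 0.23), and 19 of 27 measured members were at least 1.5-fold lower, against 13.2% of 9456 genes, and 0 higher, against 3.19%. There 2 het cells held 75.8% of the core UMIs, with a median of 42314.5 UMIs against 11322 for the others, and without the top 10% of cells by UMIs the ratio was 0.95. Neutrophil markers stood at 2987 and 51.9 CPM in that cluster (1 of 7 at 0 in KO), and their part in the result was not tested.

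Mast cell or basophil-like cluster 12 had a higher core in KO, 107.6 and 212.6 CPM (1.98, 1.74 to 2.24), and 20 of 32 measured members at least 1.5-fold higher, against 16.1% of 11788 genes, and 0 lower, against 6.79%. A single KO cell of 67680 UMIs held 51.4% of those core UMIs. The ratio was 7.01 in female and 0.57 in male cells, and 0.90 without the top 10% of cells by UMIs. Fibroblast markers stood at 736 and 2887 CPM (1 of 7 at 0 in het), and the median depth was 17456 and 9946.5 UMIs. The part of these in the result was not tested.

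Neutrophil-like cluster 13 went from 378.5 to 270.4 CPM for the core (0.71). The ratio was 0.65 in female cells, 0.99 (0.85 to 1.15) in male cells and 0.88 without the signal cells. Granulocyte progenitor markers stood at 669.8 and 186.5 CPM in this cluster, and their part in the result was not tested. Of 36 measured members 11 were at least 1.5-fold lower and 0 higher, against 6.36% and 7.8% of 11230 genes. Rsad2 went from 33.6 to 8.64 CPM there (0.26, 0.17 to 0.38), and Mx1 from 11.96 to 3.70 CPM. In cluster 15, led by myelin genes such as Mag and Mog, 10 of 28 members were lower and 2 higher, against 10.9% and 11.7% of genes. A single het cell held 58.2% of its core UMIs. Neutrophil markers stood at 27.0 and 2275 CPM in that cluster, pericyte markers at 281.3 and 64.2 CPM (3 of 6 at 0 in KO), and the median depth was 12280.5 and 8967 UMIs. Their part in the result was not tested. In the larger fibroblast-like cluster 0, 1 of 33 members was lower (Irf7, 3.07 and 1.77 CPM) and 0 higher, against 4.5% and 2.68%. In osteolineage-like cluster 4, 5 of 34 were higher and 5 lower, against 4.09% and 3.62%. Isg15 was at 25.1 and 40.0 CPM there, and 1 KO cell held 50.8% of the core UMIs. Without the top cells the core ratio of cluster 4 was 0.89, beside 1.28 with all cells.

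Among B cell-like clusters, 2 of 22 measured members were higher and 3 lower in cluster 1, against 6.9% and 4.42%. In cluster 2, 1 of 25 was higher and 2 lower, against 6.9% and 4.51%. In cluster 6, 0 of 28 were higher and 7 lower, against 6.96% and 4.22%, with Slfn2 at 24.9 and 10.97 CPM (0.44, 0.34 to 0.57). In cluster 16, 4 of 17 were higher and 2 lower, against 6.59% and 9.52%. Bst2 was among the higher, at 32.2 and 65.8 CPM.

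NK cells had 11 of 17 measured members lower and 1 higher, against 9.92% and 14.1% of 5828 genes. Bst2 went from 169.4 to 82.8 CPM (0.49, 0.34 to 0.70) and Isg15 from 115.0 to 53.6 CPM. The NK cell markers themselves stood at 4977 and 3104 CPM, fibroblast markers at 1297 and 4289 CPM, and B cell markers at 52.3 and 264.6 CPM (2 of 7 at 0 in het). Their part in the result was not tested. In ILC2s, 3 of 14 were lower and 1 higher, against 14.1% and 9.05%, and Ifi27l2a went from 63.8 to 4.84 CPM. In gdTcells, 2 of 16 were lower and 3 higher, against 7.28% and 11.2%. In pericyte or smooth muscle-like cluster 20, 4 of 16 were higher and 2 lower, against 9.07% and 10.1%. Gbp2 was at 27.7 and 86.8 CPM there (3.13, 1.89 to 5.39). In cluster 17 only 4 members were measured, of which 3 were higher and 0 lower, against 10.7% and 8.83%.

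Over the 22 classes the core interval lay below 1 in 12, above 1 in 4 and included 1 in 6. Female and male cells were both lower in KO in 11 classes and both higher in 2, and went opposite ways in 9. Without the signal cells the ratios ran from 0.56 to 1.24, with the interval below 1 in 9 classes, above 1 in 1 and including 1 in 12. Those cells were picked by the core UMIs that are compared, so these ratios are a description and no independent check.

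**Figure D5:**
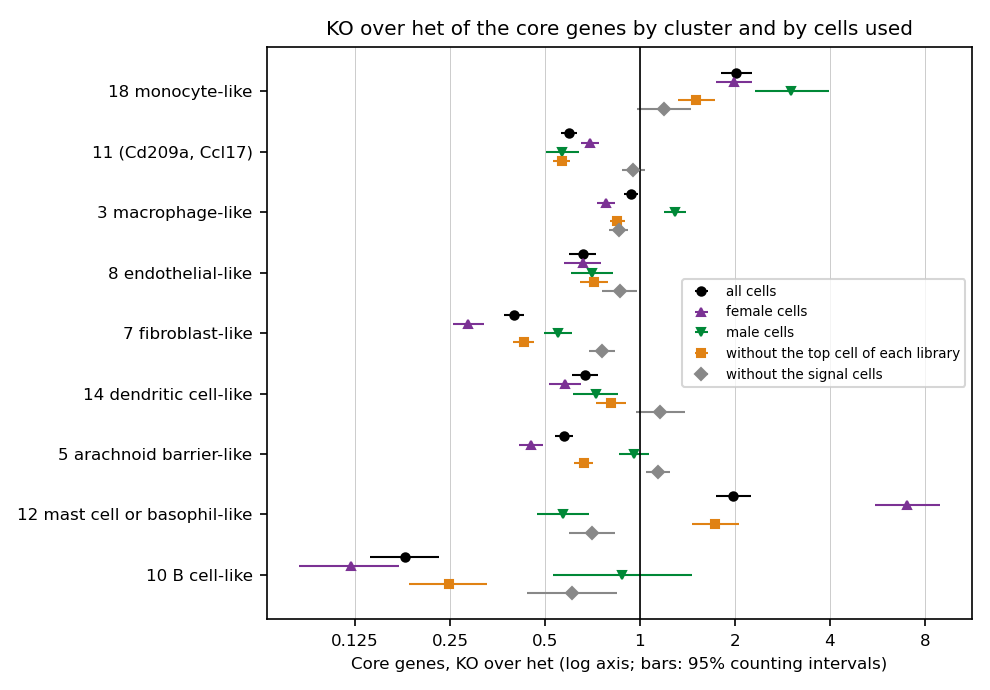
KO over het of the core genes (x axis, log scale, black line at 1) in 9 clusters (y axis) with all cells, female or male cells, without the top cell of each library, and without the signal cells, with 95% counting intervals. Female and male points stand on the same side of 1 in clusters 18, 11, 8, 7 and 14 and, with intervals that exclude 1, on opposite sides in clusters 3 and 12.

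The other induced genes were read beside the members. In cluster 11, 7 of 44 measured were at least 1.5-fold lower and 0 higher, beside 9.59% and 3.73% of all genes. In cluster 7, 5 of 36 were lower and 1 higher, beside 3.65% and 7.75%. In cluster 18, 6 of 35 were higher and 1 lower, beside 5.43% and 12.7%. The other 3 classes did not follow their core in this way. Cluster 14, with a lower core in KO, had 7 of 41 higher and 3 lower, beside 6.57% and 10.8%. Cluster 8, also with a lower core, had 0 of 37 higher and 1 lower, beside 5.07% and 6.78%. Cluster 3 had 2 of 43 higher and 3 lower, beside 3.25% and 6.91%. The receptors were past 1.5-fold in none of the 6 classes (0 of 5 measured in each).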

How the data were processed

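UMI counts per gene and barcode were deposited by the authors. The submitters' processing notes name Cell Ranger 3.0.2 and the mm10 build. The gene annotation they used is not stated in the labels. The authors' cell table, whose member counts equal the matrices in all 12544 cells, gave the annotated cells, clusters, cluster 9 names and sex. Its other cell metadata, such as the percent of mitochondrial UMIs, are as deposited by the authors. In all 12544 cells the deposited sex matches whether Xist had a UMI, and a female cell of low depth may thus be called male. Promoters come from RefSeq on GRCm38.p6, the assembly that mm10 names.

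UMIs were summed per class and library and scaled to CPM (Python 3.11.15, scipy 1.17.1). Intervals are exact at 95%: Poisson for sums, Clopper-Pearson for shares, conditional binomial for ratios. For ratios of cell shares the last is approximate. A count of 0 allows up to 3 counts. UMIs keep PCR copies from counting as molecules, and the intervals cover counting error only. Members with at least 20 UMIs over both libraries were counted as measured, and at least 1.5-fold as past the fold. No doublet caller was run, and the 10% of cells with the most UMIs were left out as an alternative. Ratios and the signal rule were tested on simulated data. For ratios these were independent counts that did not gather in single cells, as core UMIs do in some classes here. The intervals were thus not tested for such gathering. For the rule all simulated cells had the same depth. Members were named where past the fold with an interval that excludes 1, up to 8 per direction and class, or in their highest class.

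The members, groups, lists and thresholds were chosen with earlier results of these data known. Markers Trac, Trbc2, Trdc and Tcrg-C1 were not used, and 94 of 96 pathway genes were matched to a single entry.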

Additional observations from a re-analysis of the deposited data

Results flagged for a closer look

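In macrophage-like cluster 3 the core genes went opposite ways in the female and male cells. The KO/het ratio was 0.78 in female cells and 1.29 in male cells, against 0.94 over all cells. The KO cell with the most core UMIs, 457 or 15.3% of the KO total of the cluster, is labelled male. The male ratio without that cell was not computed. Signal cells made up 8.48% of female and 3.15% of male het cells of this cluster, and 8.16% and 6.56% in KO. The difference between the sexes was not tested, since there is 1 library per genotype and the sex label follows whether Xist was detected.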

How the results depend on the processing

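No paired analysis was possible because each genotype has 1 library. Results from the authors' table were the same as from the matrices. Core KO/het ratios kept their direction under most alternatives, and the cause of each change below was not tested. In cluster 3 the ratio was 1.29 in male cells, 1.09 without the 10% of cells with the most UMIs and 1.06 after thinning, and 0.78 in female cells. It was 0.85 without the top cell, 0.81 without the top 3 cells, 1.00 without the member with most UMIs and 0.86 without signal cells. In cluster 14 it was 1.16 without signal cells, 0.81 and 0.86 without the top 1 or 3 cells, 0.58 in female cells and 0.55 thinned.

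In cluster 7 it was 0.37 with equal cell weights, 0.48 without the top 3 cells, 0.29 in female and 0.55 in male cells, 0.36 without the 10% of cells with the most UMIs and 0.76 without signal cells. In cluster 8 it was 0.73 without the top 3 cells and 0.86 without signal cells. In cluster 11 it was 0.67 with equal weights, 0.64 without the top 3 cells, 0.69 in female cells, 0.76 without the 10% and 0.95 without signal cells. In cluster 18 it was 1.51 and 1.54 without the top 1 or 3 cells, 3.02 in male cells, 1.52 thinned and 1.19 without signal cells.

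Of the other clusters, cluster 0 turned to 1.05 in male cells and 1.03 thinned, cluster 5 to 1.14 without signal cells and cluster 15 to 1.59 in male cells. Cluster 4 turned to 0.82 with equal weights, 0.89 and 0.80 without the top 1 or 3 cells, 0.59 in male cells, 0.44 without the 10%, 0.93 thinned and 0.90 without signal cells. Cluster 12 turned to 0.51 with equal weights, 0.57 in male cells, 0.90 without the 10%, 0.76 thinned and 0.70 without signal cells. Ifit3b in cluster 7 turned to 1.28 in male cells, and Ifi27l2a in cluster 8 to 1.29 without the top cell and 2.72 in male cells.

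The het share of signal cells was 3.36% with 3 core genes required, 1.92% with 8, 1.36% at 20 core UMIs per 10000, 3.69% of female and 1.92% of male cells. The KO share was 1.37% with 8 genes, 0.728% at 20 per 10000 and 1.78% thinned. Of 167 member and class pairs past 1.5-fold with an interval that excludes 1, 90 stood with male cells alone. In female and in male cells alike, 69 pairs were past the fold in the same direction. Of the 152 pairs with a value in both sexes, 122 had the same direction in both. By thinned share of cells, 24 of 37 members had the same first class. Leaving out signal cells or the top 3 cells was added after the data were seen. Shallow cells limit what a UMI share can show.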

Other observations

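Signal cells were more frequent among female cells. In the het library 112 female cells (3.69%) and 56 male cells (1.92%) passed the rule, and in the KO library 75 (2.53%) and 68 (1.87%). The het and KO values of male cells lay close together. The sex label follows whether Xist was detected and so depends on depth.

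The signal was also present in barcodes that the authors did not annotate as cells. It was found in 52 of 4986 such barcodes in het (1.04%, 95% Clopper-Pearson interval 0.780 to 1.37%) and 34 of 5452 in KO (0.624%, 0.432 to 0.870%). Their median depth was 11686.5 and 11511 UMIs, against 2343 and 2562.5 UMIs for all unannotated barcodes.

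Plasmacytoid dendritic cells are known as strong makers of type I interferon. Cells with at least 4 of 6 of their markers, a threshold set after the data were seen, numbered 21 in het and 44 in KO, of which 13 and 33 lay in cluster 11. Of them 1 het and 0 KO cells carried the signal. In cluster 11 these KO cells had Isg15 at 6.08 CPM (3 UMIs in 3 cells), against 62.0 CPM in the other KO cells. Irf7 stood at 68.9 CPM (34 UMIs in 14 cells) in these KO cells and 36.5 CPM in the others. In the het library Isg15 stood at 144.7 CPM in such cells (28 UMIs in 5 of 13 cells) and 121.6 CPM in the others.

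The summed UMIs of 5 NK cell markers, Ncr1, Klrb1c, Nkg7, Gzma and Prf1, were higher in signal cells than in other cells of the same classes. The sum stood at 81.8 against 32.8 CPM in het and 93.0 against 31.2 CPM in KO. It rests on 242 and 240 UMIs in signal cells, and was not split by marker or by cell. The NK class itself held 1 signal cell in each library. Summed granulocyte progenitor markers were lower, at 7.44 against 131.1 CPM and 6.20 against 290.2 CPM. The 7 fibroblast markers stood at ratios of 0.94 and 1.07, and the 7 macrophage markers at 1.06 and 1.14.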
